A study of Brassica napus with 2 samples.

Results

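Germin-like proteins were examined in seeds of Brassica napus, oilseed rape, from the yellow-seeded line Cy2Y and the brown-seeded line Cy2B. They were taken from the unigenes, the assembled gene sequences to which the study mapped its reads. A unigene was included if it had an assigned B. napus gene and a Swiss-Prot description containing the words germin-like protein. The rule found 15 unigenes of the 28771 with an assigned gene and of the 50366 with deposited values. The paper's assembly held more unigenes, and below, all unigenes means the 50366. Cy2Y (YY) arose as a yellow-seeded mutant from Cy2B (yy), and both near-isogenic lines were derived from 1 heterozygous plant by repeated selfing. They were grown in the field, with no treatment, and RNA of whole seeds, embryo and seed coat together, was taken 26 days after pollination (after flowering in the labels). There was 1 library per line, so every test below compares 2 libraries and not 2 lines, and no value has a replicate error.

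Germins and germin-like proteins are small secreted proteins with a cupin fold, a barrel of beta strands that holds a metal ion, often manganese. They are mostly found in the cell wall space. The germins of cereals are oxalate oxidases, and some germin-like proteins have superoxide dismutase activity, so that both kinds form hydrogen peroxide. Seed storage globulins such as cruciferin and vicilin share the same fold. Plant germin-like proteins are known from embryo and fruit development and from defence against pathogens.

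The 15 unigenes stood for 13 genes, since 2 genes were each covered by 2 unigenes. Of these genes, 6 lay in the A subgenome, 6 in the C subgenome and 1 on unplaced sequence, spread over 11 chromosomes or random sequences. A cupin domain (Pfam) was annotated in 13 unigenes, manganese binding in 10, the apoplast in 10 and nutrient reservoir activity in 13. By Swiss-Prot name, 3 unigenes belonged to germin-like protein 1 (GER1), 6 to subfamily 1, 3 to subfamily 2, 2 to subfamily 3 and 1 to subfamily T. Only names were used for this grouping, and reads of close A and C copies may have been shared or split by the assembly, so that the division of reads among copies is uncertain.

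For only 1 germin-like unigene, comp43145_c0, part of the sequence was at hand, and it is shown for that reason. Among the 3 called unigenes comp43145_c0 also carried the most reads. This unigene was annotated as subfamily T member 2 and assigned to BnaA06g13160D (GSBRNA2T00035607001), at A06:6892385-6893029 on the minus strand. The 234 bases are the end of the coding sequence up to its stop codon, taken from the 399 bases given of this 831 bp unigene. Capitals mark bases 10 to 57, which encode the second of the conserved motifs of the cupin fold. The primers are those designed for quantitative PCR of a 250 bp product, and the site of the forward primer, which runs against the coding strand, lies at bases 153 to 172.
comp43145_c0 coding stretch: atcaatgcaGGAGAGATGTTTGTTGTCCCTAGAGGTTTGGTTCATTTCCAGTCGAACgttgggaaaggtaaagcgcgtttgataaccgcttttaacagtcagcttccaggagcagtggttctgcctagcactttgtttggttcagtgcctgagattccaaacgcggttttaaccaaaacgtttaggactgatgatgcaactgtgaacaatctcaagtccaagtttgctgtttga
comp43145_c0 forward primer: ttaaaaccgcgtttggaatc
comp43145_c0 reverse primer: agcgaagcaggagttgtgat

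In yellow seeds 3 germin-like unigenes were called higher than in brown seeds and 0 were called lower, while 12 were not called. A unigene was called at a Benjamini-Hochberg adjusted p under 0.05 of a two-sided Fisher's exact test on its reads, adjusted over all 50366 unigenes, and a ratio of over 2 in either direction. Of all unigenes 3.28% were called higher and 1.47% lower. Among those with an assigned gene, 2.69% were called higher and 1.32% lower, and among those that also had at least 20 reads over both libraries, 2.45% were called higher and 1.11% lower. At least 20 reads were found for 10 of the 15 germin-like unigenes, and the 3 called ones were among these. The median log2 ratio of the 10, yellow over brown with 1 read added to each count, was 0.53, beside -0.01 for the 22247 unigenes with an assigned gene and at least 20 reads. The 10 values ran from -0.35 to 2.98. They are no replicates of each other, and comp39302_c0 and comp39302_c1 belong to 1 gene. Whether their median differs from that of the other unigenes was not tested. Without the 3 called ones the median was 0.24. The calls allow for counting error only: with edgeR's exact test and an assumed coefficient of variation between seed samples of 0.2, 2 were called higher (adjusted p of 0.0776 for comp39302_c1), beside 0.691% of all unigenes called higher and 0.195% lower. With 0.4, 0 were called, beside 0.175% of all unigenes called higher and 0.0357% lower.

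The library of yellow seeds held 23236592 reads assigned to unigenes and that of brown seeds 23575447. Summed over all germin-like unigenes there were 5641 reads in yellow seeds and 3576 in brown seeds, a ratio of 1.60 (95% interval 1.53 to 1.67). Here and below the interval of a ratio is the exact Clopper-Pearson interval and covers counting error only. For the 12 unigenes not called the sums were 3815 reads in yellow seeds, against 3335 in brown seeds, with a ratio of 1.16 (1.11 to 1.22). Most of these reads, 3078 in yellow and 2650 in brown seeds, came from subfamily 2 member 1 alone. The make-up of the family's reads also differed between the libraries. Subfamily 2 member 1 took 54.6% of them in yellow and 74.1% in brown seeds, whereas subfamily T member 2 took 23.6% in yellow and 4.92% in brown seeds, and subfamily 3 member 3 took 8.23% in yellow and 1.65% in brown seeds.

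**Figure D1:**
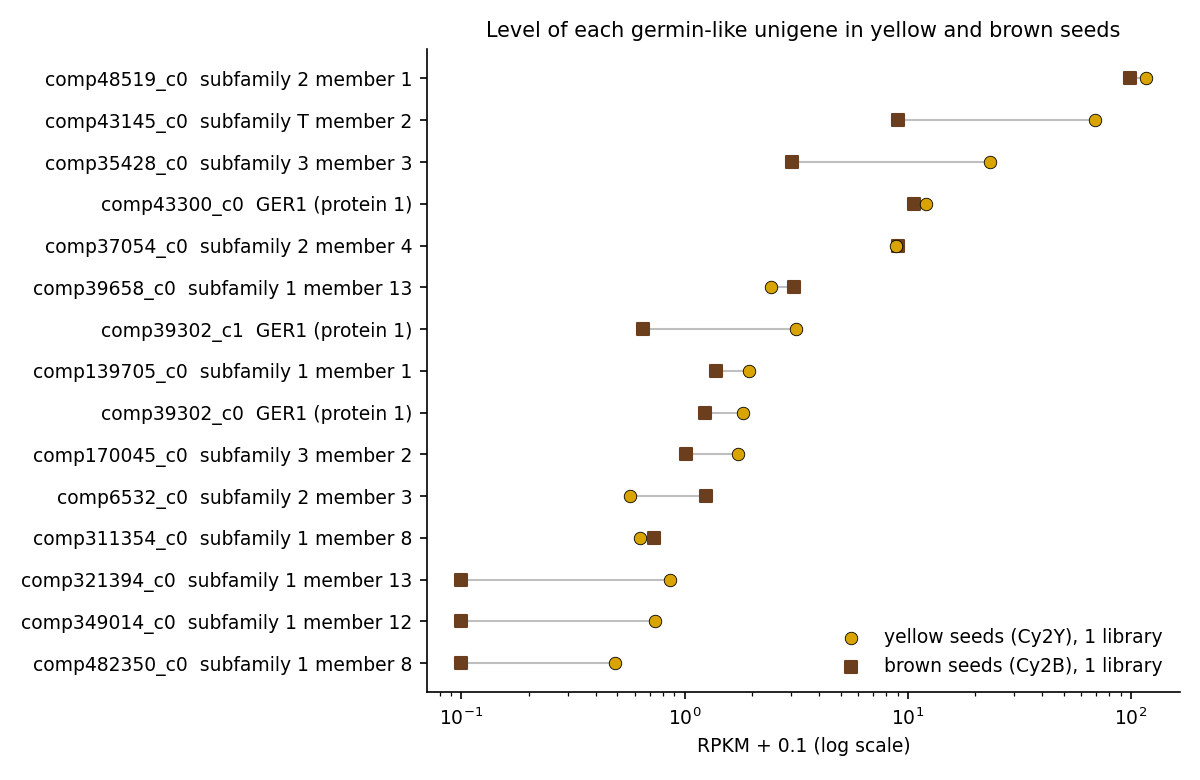
Level in RPKM (reads scaled to unigene length and library size) plus 0.1 of each of the 15 germin-like unigenes, on a log axis, with a circle for the yellow-seed library and a square for the brown-seed library. The squares at the left edge are the 3 unigenes with 0 reads in brown seeds, and the long lines in the upper rows belong to subfamily T member 2 and subfamily 3 member 3.

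The levels of the family spanned from 116 to 0.390 RPKM in yellow seeds and from 98.6 RPKM to 0 in brown seeds. In yellow seeds the order was subfamily 2 member 1, subfamily T member 2, subfamily 3 member 3, GER1 on A07 and subfamily 2 member 4, and the exact Poisson 95% intervals of neighbours among these did not overlap. Below them every neighbouring pair overlapped. In brown seeds subfamily 2 member 1 stood alone at the top, and GER1 on A07, subfamily T member 2 and subfamily 2 member 4 followed at 10.6, 8.98 and 8.91 RPKM with overlapping intervals. Subfamily 3 member 3, which came next after subfamily T member 2 in yellow seeds, lay further down the order in brown seeds and overlapped there with subfamily 1 member 13 on C04.

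Subfamily T member 2 (comp43145_c0), whose sequence is shown above, had 1329 reads in yellow seeds and 176 in brown seeds. This was 68.8 RPKM in yellow and 8.98 RPKM in brown seeds, a ratio of 7.66 (6.54 to 9.02), with an adjusted p of 5.12e-220 by Fisher's exact test. The ratio was above that of 99.8% of the unigenes with an assigned gene and at least 20 reads. It was annotated with the cupin domain, manganese binding, the apoplast and nutrient reservoir activity.

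Subfamily 3 member 3 (comp35428_c0) had 464 reads in yellow seeds and 59 in brown seeds. Its Arabidopsis thaliana counterpart, GER3, is known for transcript levels that follow the circadian clock. The unigene of 858 bp was assigned to GSBRNA2T00140846001 at C03:4910774-4911409 on the minus strand. Its level was 23.3 RPKM in yellow and 2.92 RPKM in brown seeds, a ratio of 7.98 (6.08 to 10.6), with an adjusted p of 5.45e-78 by Fisher's exact test. With 1 read added to each count, the ratio was above that of 99.9% of the unigenes with an assigned gene and at least 20 reads. The other subfamily 3 unigene, member 2 (comp170045_c0) on A01, had 21 reads in yellow seeds, against 12 in brown seeds, a ratio of 1.78 (0.834 to 3.96), and was not called. Whether the ratios of the subfamily 3 unigenes differ from each other was not tested.

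GER1 was represented by 2 genes. Its gene on A07 (comp43300_c0, 1561 bp, A07:21506444-21507274) had 434 reads in yellow seeds, against 389 in brown seeds, or 11.96 RPKM in yellow and 10.6 RPKM in brown seeds. The ratio of 1.13 (0.985 to 1.30) had an interval that included 1. The gene on C06 (GSBRNA2T00049176001, C06:25958667-25959290) was covered by 2 unigenes of 1 assembly component. The longer of these, comp39302_c1 (464 bp), had 33 reads in yellow seeds, against 6 in brown seeds, or 3.06 RPKM in yellow and 0.548 RPKM in brown seeds. It was called higher, with a ratio of 5.58 (2.31 to 16.3) and an adjusted p of 0.000111 by Fisher's exact test. With 1 read added to each count, its ratio was above that of 99.7% of the unigenes with an assigned gene and at least 20 reads. The shorter unigene, comp39302_c0 (298 bp), had 12 reads in yellow seeds, against 8 in brown seeds, a ratio of 1.52 (0.572 to 4.29), and was not called. Summed over both unigenes the C06 gene had 45 reads in yellow seeds, against 14 in brown seeds, a ratio of 3.26 (1.76 to 6.43). The unigenes of 1 gene are no replicates of each other, and the 6 reads in brown seeds make this the least precise of the 3 called ratios.

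**Figure D2:**
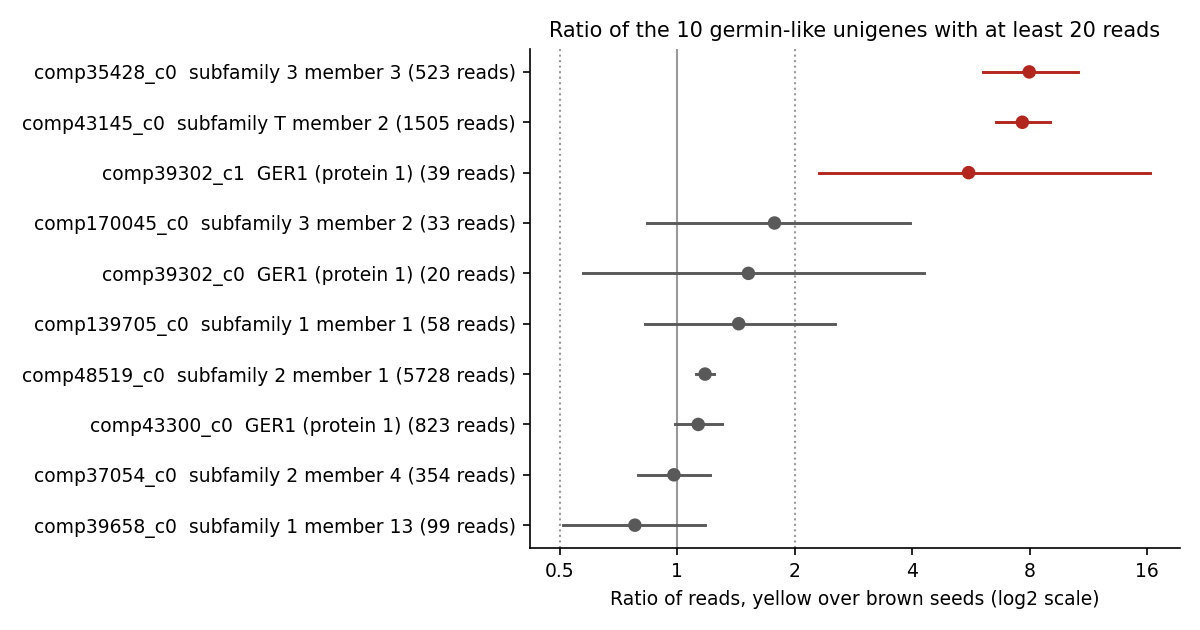
Ratio of reads, yellow over brown seeds, scaled to the library totals, of the 10 germin-like unigenes with at least 20 reads, on a log2 axis with 95% counting intervals as lines. Red points are called higher (ratios 7.98, 7.66 and 5.58), grey points are not called, the solid line is a ratio of 1 and the dotted lines are ratios of 0.5 and 2.

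The unigene with the highest level, subfamily 2 member 1 (comp48519_c0, 1140 bp, A06:3097391-3098126), had 3078 reads in yellow seeds, against 2650 in brown seeds. In Arabidopsis thaliana this protein was placed at plasmodesmata, the channels between plant cells. Its level was 116 RPKM in yellow and 98.6 RPKM in brown seeds, a ratio of 1.18 (1.12 to 1.24). The adjusted p of Fisher's exact test was 1.49e-08, but the ratio was under 2 and the unigene was not called. Subfamily 2 member 4 (comp37054_c0, A09) had 174 reads in yellow seeds, against 180 in brown seeds, or 8.73 RPKM in yellow and 8.91 RPKM in brown seeds. Its ratio was 0.981 (0.792 to 1.21), so that a difference of 2-fold lies outside its counting interval in both directions.

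In subfamily 1 no unigene was called. The summed reads of its 6 unigenes were 92 in yellow and 86 in brown seeds, a ratio of 1.09 (0.800 to 1.47). Member 13 on C04 (comp39658_c0) had 43 reads in yellow seeds, against 56 in brown seeds, or 2.34 RPKM in yellow and 3.01 RPKM in brown seeds, a ratio of 0.779 (0.511 to 1.18). Member 1 on C03 (comp139705_c0) had 34 reads in yellow seeds, against 24 in brown seeds, or 1.85 RPKM in yellow and 1.28 RPKM in brown seeds, a ratio of 1.44 (0.828 to 2.53). Over all 7 unigenes with at least 20 reads that were not called, the ratios ran from 0.779 to 1.78, 5 above 1 and 2 below, and 6 of the 7 intervals included 1.

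The other 5 unigenes had 3 to 14 reads over both libraries, with 3 to 5 reads in yellow and 0 to 10 in brown seeds, and were 202 to 405 bp long. They were subfamily 2 member 3 (comp6532_c0), subfamily 1 member 8 on C08 (comp311354_c0 and comp482350_c0, both of 1 gene), subfamily 1 member 13 on A07_random (comp321394_c0) and putative subfamily 1 member 12 on C09 (comp349014_c0). The last 2 and comp482350_c0 had 4, 3 and 3 reads in yellow seeds in the order comp321394_c0, comp349014_c0 and comp482350_c0, and 0 in brown seeds. A count of 0 allows up to 3 reads, so these differences were not detectable at this depth.

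**Figure D3:**
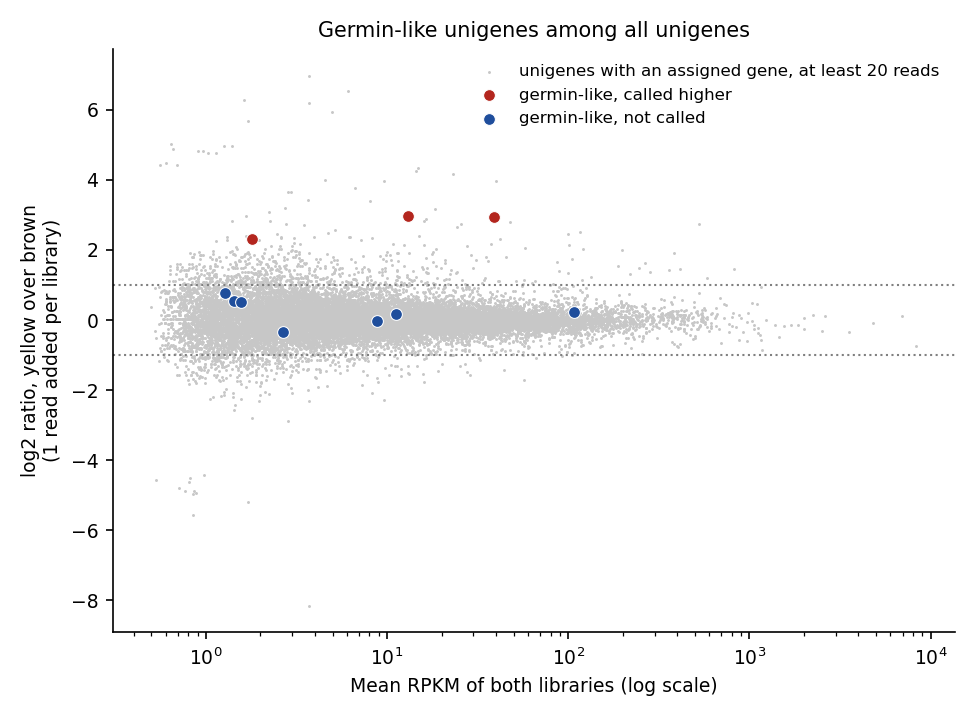
Log2 ratio of reads, yellow over brown seeds with 1 read added to each count, against the mean RPKM of both libraries (log axis), for the 22247 unigenes with an assigned gene and at least 20 reads in grey. The 3 germin-like unigenes called higher are in red, the 7 not called in blue, and the dotted lines mark log2 ratios of 1 and -1.

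The unigenes with the levels most like those of the called germin-like unigenes were listed by their distance in log2(RPKM + 1) over the 2 libraries, among 28770 unigenes with an assigned gene. Nearest to subfamily T member 2 were comp47792_c0, a vicilin-like protein, with 83.4 RPKM in yellow and 12.01 RPKM in brown seeds, then comp58798_c0, a thionin, and comp46893_c0, described as MOTHER of FT and TFL1, a regulator of seed germination. Nearest to subfamily 3 member 3 were comp37752_c0, a hypothetical protein, with 23.3 RPKM in yellow and 3.13 RPKM in brown seeds, and the oleosins comp26065_c0 and comp35155_c0, coat proteins of seed oil bodies. For comp39302_c1 they were comp32834_c0, described as an epidermal patterning factor-like protein, the B-type oleosin comp27197_c0 and the hypothetical protein comp30840_c0. The protein match of comp27197_c0 was described as anther-specific. Subfamily 2 member 1 was nearest to comp52087_c0, a subtilisin-like protease, with 117 RPKM in yellow and 97.6 RPKM in brown seeds, and to comp49970_c0 and comp46416_c0, a 6-phosphogluconate dehydrogenase and a peroxiredoxin. With 1 library per line, likeness here is likeness of 2 values.

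Storage and oil body proteins of the maturing embryo also had higher levels in the yellow-seed library. Of 24 unigenes described as cruciferin, napin or oleosin, 17 were called higher and 2 lower, with a median log2 ratio of 2.38 over the 22 with at least 20 reads. Their summed level was 2203 RPKM in yellow and 535 RPKM in brown seeds. Of all unigenes with an assigned gene, the reference for this and every list below, 2.69% were called higher and 1.32% lower. Of the 24, 3 were B-type oleosins, which are known from anthers and not from embryos; without them 16 of 21 were called higher and 1 lower, with a median log2 ratio of 2.46. The embryo-specific napin comp51403_c0, a storage albumin, had 22445 reads in yellow seeds, against 3388 in brown seeds, a ratio of 6.72 (6.48 to 6.97). Oleosin Bn-III (comp45251_c0) had 13742 reads in yellow seeds, against 4534 in brown seeds, a ratio of 3.08 (2.97 to 3.18). The lower ones were cruciferin BnC2 (comp273222_c0), with 0 reads in yellow seeds, against 13 in brown seeds, and an oleosin-B2 fragment (comp37951_c0), with 339 reads in yellow seeds, against 688 in brown seeds. The 3 called germin-like unigenes were higher in the same library, a direction set by picking them as called higher. The 7 germin-like unigenes with at least 20 reads that were not called had ratios of 0.779 to 1.78. The part of embryo RNA in the germin-like result was not tested. In whole seeds, more cells of a type and more RNA per cell cannot be told apart.

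Of 4 markers of the mucilage cells of the seed coat 0 were called, as by Fisher's exact test for all lists, and their summed level was 915 RPKM in yellow and 1165 RPKM in brown seeds. The highest were beta-D-xylosidase 1 (comp53025_c1), a cell wall enzyme, with 9347 reads in yellow seeds, against 10696 in brown seeds, and the pectinesterase comp46646_c0, with 13035 reads in yellow seeds, against 21162 in brown seeds, a ratio of 0.625 (0.611 to 0.639). The words chosen for endosperm found 9 unigenes, 4 of FERTILIZATION-INDEPENDENT ENDOSPERM, a Polycomb subunit that other tissues also use, and 5 of MEDEA. Of these 0 were called, and their summed level was 62.7 RPKM in yellow and 64.4 RPKM in brown seeds, with 2 of the 9 at 0 reads in yellow and 0 of the 9 at 0 reads in brown seeds. The part of seed coat and endosperm in the germin-like result was not tested.

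Other proteins of the cupin fold were set beside the germin-like ones. Of 20 such unigenes, yellow seeds had 8 called higher and 1 called lower, against 2.69% and 1.32% of all unigenes with an assigned gene. The 18 with at least 20 reads had a median log2 ratio of 0.52. By description those called higher were cruciferins, a convicilin and 2 vicilin-like antimicrobial peptides. Convicilin (comp48780_c0) had 20048 reads in yellow seeds, against 7933 in brown seeds, a ratio of 2.56 (2.50 to 2.63). Cruciferin CRU4 (comp44606_c0) had 672 reads in yellow seeds, against 43 in brown seeds, a ratio of 15.9 (11.6 to 22.1). The vicilin-like antimicrobial peptide unigene comp47792_c0 had 3107 reads in yellow seeds, against 454 in brown seeds, and comp43513_c0, described alike, had 961 in yellow and 315 in brown seeds. The rest were CRU2 (comp44289_c0), with 1776 reads in yellow seeds, against 814 in brown seeds, and 3 unigenes of 1 CRU1 gene on A01 (comp30820_c0, comp41222_c0 and comp41222_c1), with 53, 136 and 27 reads in yellow and 5, 20 and 3 in brown seeds. The lower one was the cruciferin BnC2 named above. The list of cruciferins, napins and oleosins shared 6 unigenes with this list. Not called was the acireductone dioxygenase comp36316_c0, an enzyme of methionine salvage, with 3364 reads in yellow seeds, against 3518 in brown seeds.

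Enzymes that make or remove superoxide and hydrogen peroxide, the small molecules that germin-like activities act on or form, were looked up next. The words used also matched the copper chaperone for superoxide dismutase, which is counted in the list but is no such enzyme. Of 49 unigenes 2 were called higher and 1 lower, against 2.69% and 1.32% of all unigenes with an assigned gene, and the 36 with at least 20 reads had a median log2 ratio of 0.02. The chloroplast iron superoxide dismutase comp42350_c1 had 10082 reads in yellow seeds, against 3625 in brown seeds, a ratio of 2.82 (2.72 to 2.93). The copper chaperone for superoxide dismutase (comp44061_c0), which loads copper into the Cu-Zn enzymes, had 680 reads in yellow seeds, against 154 in brown seeds, a ratio of 4.48 (3.76 to 5.37). Manganese superoxide dismutase comp245140_c0 was called lower with 0 reads in yellow seeds, against 9 in brown seeds, a call lost at the assumed coefficient of variation of 0.2. The Cu-Zn superoxide dismutase comp46548_c0, with 7696 reads in yellow seeds, against 8226 in brown seeds, and the cytosolic ascorbate peroxidase comp51983_c0, with 12611 reads in yellow seeds, against 14383 in brown seeds, were not called.

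Class III peroxidases, secreted enzymes that use hydrogen peroxide, had 3 of 42 unigenes called higher and 2 called lower. The shares of all unigenes with an assigned gene were 2.69% and 1.32%. The 26 peroxidases with at least 20 reads had a median log2 ratio of -0.17. PER10 (comp37965_c0) had 838 reads in yellow seeds, against 235 in brown seeds, and PER12 (comp44271_c0) had 822 in yellow and 265 in brown seeds. PER34 (comp11475_c0) had 9 reads in yellow seeds, against 0 in brown seeds. PER45 (comp43058_c0) had 37 reads in yellow seeds, against 153 in brown seeds, and PER52 (comp26497_c0) had 84 in yellow and 364 in brown seeds. The most abundant, PER42 (comp39620_c0), had 85179 reads in yellow seeds, against 83130 in brown seeds, a ratio of 1.04 (1.03 to 1.05), and PER21 (comp41553_c0) had 15065 in yellow and 18359 in brown seeds. Of the enzymes of oxalate breakdown, 3 unigenes of formate dehydrogenase were found and 0 were called. The most abundant, comp47875_c0, had 3399 reads in yellow seeds, against 3168 in brown seeds, and comp40985_c1 had 97 in yellow and 116 in brown seeds.

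**Figure D4:**
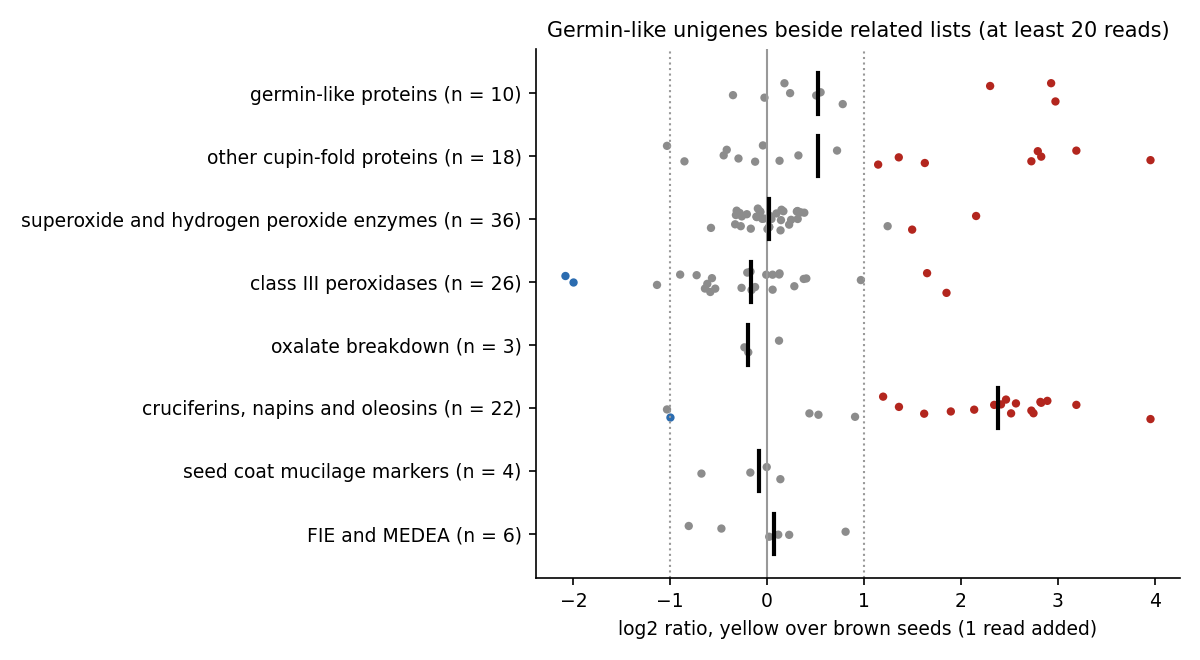
Log2 ratio of reads, yellow over brown seeds with 1 read added, of each unigene with at least 20 reads, for the germin-like proteins and the related lists, with the median of each list as a black bar. Red points are called higher, blue points lower and grey points not called; the medians are 0.53 for the germin-like proteins and 2.38 for the cruciferins, napins and oleosins.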

How the data were processed

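Whole seeds of Cy2Y and Cy2B were sequenced as 100 bp read pairs, 1 library per line. The authors joined the reads of Cy2Y and Cy2B in 1 Trinity assembly, to whose unigenes the reads were then mapped; aligner and counter: not given in the sources used here. Deposited estimated counts (expected counts), not whole for 32.1% of the unigenes, were rounded. The authors' RPKM derives from count, unigene length and library total. Coordinates are those the deposited table gives for the assigned B. napus genes; no assembly version is named there.

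Each unigene was tested with a two-sided Fisher's exact test of its reads against the rest of the library (SciPy 1.17.1), with Benjamini-Hochberg adjustment over 50366 unigenes. In simulated counts with counting error alone, 200 of 49689 unigenes were changed 4-fold. The 200 were drawn only from unigenes with at least 20 reads over both real libraries. Fisher's exact test recovered 91.5% of the 200. On the same counts edgeR's exact test recovered 88% at an assumed coefficient of variation of 0.1, 68.5% at 0.2 and 0% at 0.4. Recovery with a real spread between seed samples was not tested. Medians, and the percentages of unigenes with a lower ratio, used 1 read added. The 95% intervals cover counting error only. Alternatives used edgeR 4.0.16 and DESeq2 1.42.0 size factors.

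Named were all germin-like unigenes, the called and up to 2 most abundant unigenes of each related list (markers as whole lists), and the 3 nearest unigenes of the called members and of the most abundant member. Members and lists were chosen with earlier results of these data known. Marker words were matched as whole words, a change made after seeing the matches.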

Additional observations from a re-analysis of the deposited data

Results flagged for a closer look

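A cupin-fold unigene without an assigned gene, comp16515_c0, lay outside the comparisons above. It was described as auxin-binding protein ABP19a, with grapevine as its best protein match. It had 221 reads in yellow seeds, against 0 in brown seeds, a ratio of 74.7 when 3 reads stand for the count of 0.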

How the results depend on the processing

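The calls of the germin-like unigenes rested on counting error alone unless a spread between samples was assumed. With edgeR's exact test and an assumed biological coefficient of variation of 0.1, 3 were called higher; at 0.2, 2 were, since comp39302_c1 then had an adjusted p of 0.0776; at 0.4, 0 were, with adjusted p values of 0.304 for both comp43145_c0 and comp35428_c0 and 1 for comp39302_c1. Of all 50366 unigenes, 826 were called higher and 370 lower at 0.1, 348 higher and 98 lower at 0.2, and 88 higher and 18 lower at 0.4. Which spread holds for these seeds is unknown. Under the DEGseq formula, TMM, median-ratio or assigned-gene scaling, halved counts and summing of the unigenes of 1 gene or component, 3 were called higher. With no fold threshold 4 were, subfamily 2 member 1 being the added one, and among unigenes with at least 100 reads 2 were. For these settings, from the DEGseq formula on, shares over all unigenes were not worked out. Their counts describe the germin-like unigenes alone and cannot be compared with the other unigenes. The median log2 ratio was 0.24 to 0.55 over its alternatives, the lowest with at least 100 reads and, an alternative chosen after seeing the data, without the called unigenes. At the coefficient of 0.2 the cruciferins, napins and oleosins had 15 called higher and 0 lower, the other cupin-fold proteins 6 higher and 0 lower, the superoxide and hydrogen peroxide enzymes 2 higher and 0 lower and the class III peroxidases 2 higher and 2 lower. No paired analysis was possible because each line had 1 library, and leaving out a replicate was not possible for the same reason. Unigenes under 20 reads are limited by depth.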

Other observations

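Among the 33 unigenes with an assigned gene and a Pfam cupin domain, 6 were neither germin-like by description nor in the list of other cupin-fold proteins, and 2 of these were called higher (Fisher's exact test, yellow over brown). Of all unigenes with an assigned gene 2.69% were called higher. The 2 were named after their values were seen. The first, comp43513_c2 on A06, described as a cupin-like protein, had 504 reads in yellow seeds, against 133 in brown seeds, a ratio of 3.84 (3.17 to 4.69); it was assigned to the same gene as the vicilin-like comp43513_c0. The second, comp25963_c0 on C07, described as globulin-like, had 177 reads in yellow seeds, against 48 in brown seeds, a ratio of 3.74 (2.71 to 5.26). The germin-like unigene without an assigned gene, comp76464_c0, described as subfamily 2 member 1, had 8 reads in yellow seeds, against 15 in brown seeds and was not called.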
